A study of Homo sapiens with 60 samples.

Results

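The 43 genes described here encode proteins of mitosis and the spindle: the kinases and cyclins that start cell division, the kinetochore and checkpoint proteins that attach and count chromosomes, the motors that build the spindle, and the proteins that separate the daughter cells. They were taken as a list of gene symbols, and each matched 1 of the 60675 gene entries of the count table. They fall into 9 roles of 2 to 7 genes, and all 43 passed the filter on low counts in every comparison. RNA was sequenced from HT29, an established line of human colorectal adenocarcinoma cells, in 60 libraries of 25 groups, all collected after 24 h of treatment. Ethanol extracts of Astragali Radix, Cnidii Rhizoma, Cinnamomi Cortex, Paeoniae Radix and Rehmanniae Radix Preparata were each given at a low dose of 20, a medium dose of 100 and a high dose of 500 µg/mL, with 3 libraries per dose. Angelicae Gigantis Radix was given at 12.8, 64 and 320 µg/mL, with 2 libraries per dose. The formulas Sagunja-tang and Samul-tang were given at 20, 100 and 500 µg/mL, with 1 library per dose, and 3 libraries came from cells that received the vehicle dimethyl sulfoxide (DMSO), at 0.1% by the sample labels and 2% by the text on the series. Inhibitors and other treatments of the same experiment were not analysed here.

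Mitosis is driven by the kinase CDK1 bound to cyclin B and ends when the anaphase promoting complex, switched on by CDC20, marks cyclin B and securin for destruction. In between, the spindle checkpoint holds the cell until the kinetochores of all chromosomes are attached to microtubules. Transcripts of these genes are made mainly late in the cell cycle, under the DREAM and MuvB complexes with MYBL2 and FOXM1, so their summed level in a bulk sample is often read as a proliferation signature. Colorectal cancer lines such as HT29 divide quickly and hold these transcripts at high levels.

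Many promoters of such genes hold a cell cycle homology region, a TTTGAA element near the start that MuvB complexes bind, and upstream of it CCAAT boxes bound by the factor NF-Y. In RefSeq promoters (build GRCh38.p14, 250 bases before to 50 bases after each gene's start), 37 of the 43 genes had an entry, and AURKA, BIRC5, BUB3, TTK, TPX2 and UBE2C had none. TTTGAA or TTCGAA, searched on both strands, was present in 30 of the 37 genes (81.1%), against 19.5% of the 27305 genes in the table. CCAAT, searched on both strands, was present in 31 of the 37 (83.8%), against 39.7% of all, and both together in 26 (70.3%), against 9.02%. The 6 promoters below are shown because they hold both elements in the window before the start and because their genes differed in response: MKI67, KIF11, ASPM and ESPL1 fell with 2 extracts, KIF4A fell with 1 of them, and CDC20 fell with none. Each is the 130 bases that end just before the gene's RefSeq start, written 5′ to 3′ on the gene's own strand, with every match in capitals (either motif, or its reverse complement where it lies on the other strand). Gene coordinates given later come from GENCODE release 29, where a gene's start can differ from the RefSeq start.
MKI67, chr10:128126424-128126553, minus strand: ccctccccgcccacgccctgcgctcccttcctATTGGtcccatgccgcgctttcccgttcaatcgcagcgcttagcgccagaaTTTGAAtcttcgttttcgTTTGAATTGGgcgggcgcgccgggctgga
KIF11, chr10:92593000-92593129, plus strand: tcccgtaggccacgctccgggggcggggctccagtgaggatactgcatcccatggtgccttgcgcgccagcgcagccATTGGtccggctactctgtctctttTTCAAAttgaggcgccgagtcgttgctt
ASPM, chr1:197146670-197146799, minus strand: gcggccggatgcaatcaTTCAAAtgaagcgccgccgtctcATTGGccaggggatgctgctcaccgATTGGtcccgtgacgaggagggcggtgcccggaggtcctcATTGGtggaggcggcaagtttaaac
KIF4A, chrX:70289974-70290103, plus strand: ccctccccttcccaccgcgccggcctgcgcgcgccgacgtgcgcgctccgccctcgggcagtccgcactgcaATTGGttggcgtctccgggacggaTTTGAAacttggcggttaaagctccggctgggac
ESPL1, chr12:53268169-53268298, plus strand: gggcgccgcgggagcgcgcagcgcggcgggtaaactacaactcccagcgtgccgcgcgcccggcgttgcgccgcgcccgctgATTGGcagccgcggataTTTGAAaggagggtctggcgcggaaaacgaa
CDC20, chr1:43358851-43358980, plus strand: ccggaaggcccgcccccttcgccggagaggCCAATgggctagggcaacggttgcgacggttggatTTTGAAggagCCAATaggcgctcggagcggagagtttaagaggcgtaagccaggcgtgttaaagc
Within the printed windows, counting back from the start, with the last base before it as -1, the element began at -28 in KIF11, -31 in ESPL1, -34 in KIF4A and -65 in CDC20. In MKI67 the second of its copies, at -29, shared its last base with a CCAAT box at -24. In ASPM the printed CCAAT boxes lay nearer to the start than the element at -113, and a further box at -134, outside the window, lay upstream of it. A match is a description of letters in this window and not a measured binding site.

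Total counts ran from 17798492 to 31134188 per library, and the 43 genes took between 0.262% and 0.6% of the counts in the Astragali Radix libraries. Values below are CPM, counts scaled to library size, with the sizes adjusted by TMM, a method that assumes most genes do not change, and log2 changes come from edgeR's quasi-likelihood test with Benjamini-Hochberg adjustment over all genes tested (threshold 0.05). The labels do not say whether the libraries of a group are separate cultures; the p-values cover the spread among the libraries and nothing wider, and that spread may be technical. All 10 colon epithelium markers checked were detected, and the summed level of markers of fibroblasts, leukocytes, endothelium, hepatocytes and neurons stayed at or under 11.0 CPM per list in every library. The 3 high-dose Astragali Radix libraries stood apart from all others and from each other: their TMM factors were 0.853, 0.804 and 0.785, their share of counts from mitochondrial genes was 1.99%, 6.72% and 7.82% (low dose 7.62% to 7.98%), and pairs of them differed by a chi-square of 91.2 to 223 per gene, against at most 13.7 in any other group. They were therefore fitted with the Astragali Radix low dose alone, while 11 other comparisons shared a model of 51 libraries, and the neuron markers reached 11.0 CPM in library 3 of that group.

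The summed level of the 43 genes separated 2 extracts from the rest. It was 3163, 3259 and 3609 CPM in the high-dose Astragali Radix libraries against 5672 to 5847 at the low dose, and 5029 to 5284 in the high-dose Cnidii Rhizoma libraries against 5883 to 6045 at the low dose. In neither extract did the high and low libraries overlap. The other extracts lay on the other side at the high dose, also without overlap. Cinnamomi Cortex measured 6241 to 6430 CPM against 5658 to 5998, and Rehmanniae Radix Preparata 6105 to 6264 against 5655 to 5919. Angelicae Gigantis Radix measured 6158 to 6229 CPM against 5726 to 5793, and Paeoniae Radix 5933 to 5995 against 5628 to 5866. The vehicle libraries lay between 5892 and 6241 CPM. These are bulk samples, so fewer cells in division and less RNA of these genes per cell cannot be told apart.

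**Figure D1:**
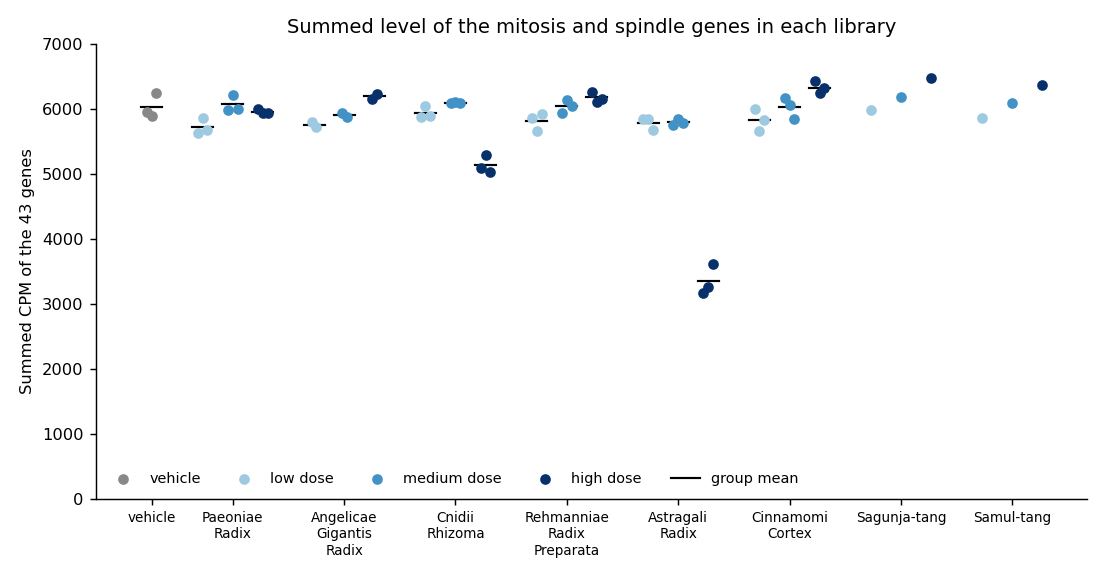
Each point is the summed CPM of the 43 genes (vertical axis, from 0) in 1 library, coloured by dose, with a line at the mean of groups with 2 or 3 libraries. The high-dose Astragali Radix libraries sit between 3163 and 3609 and the high-dose Cnidii Rhizoma libraries between 5029 and 5284, below the other groups.

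At the high dose of Astragali Radix, 21 of the 43 genes fell against the low dose and 0 rose (18.3% of the 15236 genes tested were called lower and 21.9% higher). The median log2 change of the 43 was -0.73, against 0.02 over all genes tested, and 28 genes were lower without overlap between the groups, where 31.1% of all genes were. By role, 2 of 2 chromosome structure genes, 4 of 6 kinetochore genes, 4 of 7 kinesins and 5 of 6 spindle assembly genes fell, and 0 of 7 mitotic entry genes did (4 of the 7 with library totals). At an unadjusted p under 0.05 there were 24 genes, and DESeq2 called 24 lower and 0 higher. With library totals in place of TMM the median of all genes moved to -0.35, the called genes went from 3330 higher and 2783 lower to 2018 higher and 4700 lower, and 29 of the 43 were called lower and 0 higher. Without high-dose library 3 the count of lower genes was 34, without high-dose library 1 or 2 it was 19 or 21, and without low-dose library 1, 2 or 3 it was 14, 12 or 15.

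Of the proliferation and chromosome structure genes, both fell. MKI67 (chr10:128096659-128126385), whose product Ki-67 coats mitotic chromosomes and is the common clinical mark of dividing cells, measured 888, 846 and 791 CPM at the low dose and 297, 190 and 82.8 at the high dose. Its log2 change was -2.13 ± 0.41 (SE; adjusted p = 0.007). TOP2A (chr17:40388516-40417950), the topoisomerase that untangles sister DNA strands, measured 464, 474 and 463 CPM at the low dose and 141, 116 and 44.8 at the high dose, a log2 change of -2.20 ± 0.37 (adjusted p = 0.0044). For both genes every high-dose library lay far below every low-dose library, and library 3 was the lowest.

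In the main fit of 6 libraries, with TMM scaling, 0 of the 7 mitotic entry genes were called. With library totals CDK1, CCNA2, CCNB2 and AURKA were called lower at -0.71, -0.94, -0.92 and -0.75 (adjusted p = 0.016, 0.011, 0.022 and 0.035). The same 4 genes were called lower with all 54 libraries in 1 model, also with TMM scaling, where these libraries share the spread of the other groups. That model also called BIRC5, CDCA8, CDC20, UBE2C and PTTG1 higher, at 0.52, 0.31, 0.72, 0.79 and 0.46. CCNB1, cyclin B1, measured 148, 145 and 155 CPM at the low dose and 137, 119 and 164 at the high dose (log2 change -0.05 ± 0.19). PLK1, the kinase that promotes entry and centrosome maturation, measured 168, 155 and 152 CPM at the low dose and 115, 130 and 275 at the high dose (0.19 ± 0.36). Libraries 1 and 2 lay below the low-dose range of PLK1 and library 3 above it, so the groups overlapped, and with library totals its value turned to -0.21. CDK1, the kinase that cyclin B activates, gave -0.32 (adjusted p = 0.25), the cyclins CCNA2 and CCNB2 gave -0.54 and -0.52, AURKA, a centrosome kinase, gave -0.35, and CDC25C, the phosphatase that activates CDK1, gave -0.01. CCNA2 and CCNB2 were lower in all 3 high-dose libraries without overlap but were not called (adjusted p = 0.12 and 0.19).

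Of the chromosomal passenger complex, which corrects faulty attachments, INCENP, its scaffold, fell by 0.53 ± 0.15 on the log2 scale (adjusted p = 0.029), from 119, 108 and 110 CPM to 86.9, 78.5 and 63.9. Its kinase AURKB measured 45.4, 44.2 and 47.6 CPM at the low dose and 23.9, 25.4 and 63.6 at the high dose (log2 change -0.22, adjusted p = 0.7). The targeting subunits BIRC5 and CDCA8 gave 0.55 and 0.33, neither called, and CDCA8 turned to -0.07 with library totals. Both were called higher with all 54 libraries in 1 model. In AURKB, BIRC5 and CDCA8 library 3 had the highest level of the 3 high-dose libraries, above all low-dose libraries.

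In the spindle checkpoint, BUB1 and BUB1B fell and BUB3, MAD2L1 and TTK gave no call. BUB1B encodes BUBR1, a part of the inhibitor that blocks CDC20. It measured 108, 111 and 108 CPM at the low dose and 46.0, 47.8 and 20.8 at the high dose (log2 change -1.49 ± 0.28, adjusted p = 0.0068). BUB1, the kinase that recruits the checkpoint to kinetochores, changed by -1.01 ± 0.21 (adjusted p = 0.0087). MAD2L1, the MAD2 subunit of the same inhibitor, measured 71.2, 75.5 and 80.8 CPM at the low dose and 45.1, 60.1 and 162 at the high dose. Its groups overlapped, and its log2 change of 0.30 turned to -0.12 with library totals. TTK, the MPS1 kinase, gave -0.73 (adjusted p = 0.1) and BUB3, the carrier of BUB1 and BUBR1, gave 0.03, which turned to -0.35 with library totals.

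In the centromere and outer kinetochore role 4 of 6 genes fell. CENPE (chr4:103105806-103198409), a kinesin that slides chromosomes to the spindle middle, had the largest change of the 43 genes: 65.4, 73.2 and 63.3 CPM at the low dose became 15.9, 7.94 and 5.16 (log2 change -2.77 ± 0.39, adjusted p = 0.0022). CENPF, a large coiled-coil protein of the outer plate, went from 275, 290 and 283 CPM to 101, 54.5 and 17.5 (-2.28 ± 0.54, adjusted p = 0.015). NDC80 and NUF2, which together hold the microtubule, fell by 1.10 and 1.00 on the log2 scale. The NDC80 complex subunit SPC25 (-0.18) and the centromeric histone CENPA (-0.40) were not called.

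Of the kinesin motors, 4 of 7 fell. KIF11, the motor that pushes spindle poles apart, measured 108, 109 and 106 CPM at the low dose and 53.5, 54.9 and 24.6 at the high dose (log2 change -1.26 ± 0.28, adjusted p = 0.011). KIF20A, KIF14 and KIF23, which act in the midzone and in cytokinesis, changed by -1.39, -1.40 and -1.27 (adjusted p = 0.0033, 0.014 and 0.0054). KIF18A, which dampens chromosome movement, KIF2C, which takes microtubules apart, and KIF4A, which shortens the midzone, were lower without overlap at -1.22, -0.42 and -0.77 but missed the threshold (adjusted p = 0.059, 0.051 and 0.13).

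Of the 6 spindle assembly and microtubule binding genes, 5 fell. ASPM (chr1:197084128-197146694), which focuses spindle poles, measured 182, 189 and 176 CPM at the low dose and 42.1, 39.3 and 11.8 at the high dose (log2 change -2.54 ± 0.42, adjusted p = 0.0042). DLGAP5 and HMMR, which stabilise spindle microtubules, changed by -1.59 and -1.52, PRC1, which bundles midzone microtubules, by -0.70, and NUSAP1, which links microtubules to chromosomes, by -0.78. TPX2, the activator of AURKA on the spindle, measured 337, 333 and 318 CPM at the low dose and 244, 244 and 127 at the high dose. TPX2 was lower without overlap but not called (-0.66 ± 0.23, adjusted p = 0.059).

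In the anaphase role, ESPL1, the separase that cuts cohesin, fell from 65.1, 59.8 and 62.8 CPM to 24.6, 25.0 and 32.2 (log2 change -1.15 ± 0.18, adjusted p = 0.0035), and the other 3 genes were not called. CDC20 (chr1:43358955-43363203), the activator of the anaphase promoting complex, measured 140, 138 and 137 CPM at the low dose and 146, 155 and 370 at the high dose. It was the 1 gene of the 43 that was higher without overlap (27.6% of all genes were), with a log2 change of 0.76 ± 0.39 (adjusted p = 0.16). UBE2C, the ubiquitin-conjugating enzyme of that complex, measured 107, 110 and 99.2 CPM at the low dose and 81.1, 131 and 324 at the high dose (0.83 ± 0.50, adjusted p = 0.22). Securin, the separase inhibitor encoded by PTTG1, gave 0.49 (adjusted p = 0.22). The high values of CDC20, UBE2C and PTTG1 came mainly from library 3. These genes were called higher with all 54 libraries in 1 model and not called with library totals. Of the cytokinesis genes, ECT2, an exchange factor that acts at the cell equator, and ANLN, the anillin scaffold of the contractile ring, fell by 0.95 and 0.77 on the log2 scale (adjusted p = 0.022 and 0.028).

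**Figure D2:**
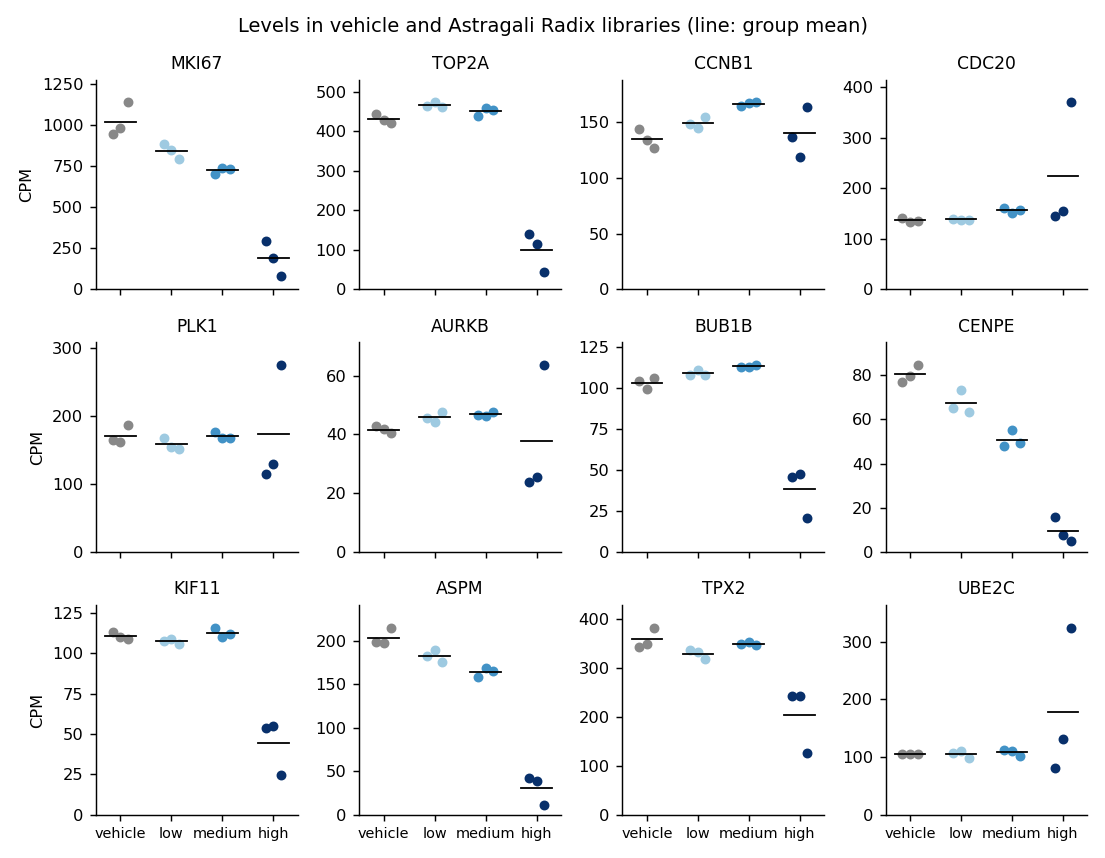
CPM (vertical axes, each from 0) of 12 genes in each vehicle library and each Astragali Radix library at the low, medium and high dose, with a line at the group mean. MKI67, TOP2A, BUB1B, CENPE, KIF11 and ASPM are low in all 3 high-dose libraries, while CDC20, UBE2C, PLK1 and AURKB are spread, with library 3 the highest.

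The 21 calls differed in how far they rested on single libraries. Of them, 11 were called in all 6 fits that each left out 1 library (MKI67, TOP2A, BUB1, BUB1B, CENPE, KIF11, KIF20A, KIF23, ASPM, DLGAP5 and ESPL1). ANLN and ECT2 were called in 2 of the 6. CENPE ranged from -3.32 to -2.49 over these fits and MKI67 from -2.59 to -1.77.

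The size of the change at the high dose of Astragali Radix went with transcript length, a feature not used to choose the genes. Length was taken as the longest protein-coding transcript of each gene in GENCODE release 29, a choice made after the values were seen. Across the 43 genes, Spearman's correlation between length and log2 change was -0.65. The 5 longest transcripts that belong to called genes are MKI67 (12678 bases), ASPM (10887), CENPF (10307), CENPE (8612) and KIF14 (7274), and the shortest of the 43 are UBE2C (914) and PTTG1 (1070). Among the 6 genes over 7000 bases the median log2 change was -2.20 and 5 fell, the exception being BUB3. Among the 15 genes under 2500 bases the median was -0.18 and 3 fell (NUSAP1, NDC80 and NUF2). The same lean was present in the background. Across 12547 protein-coding genes Spearman's correlation was -0.32, the median log2 change was -0.43 for 1498 genes over 7000 bases, of which 32.6% were called lower, and 0.38 for 4195 genes under 2500 bases, of which 7.37% were called lower. All these values come from the same 6 libraries, genes are not independent replicates, and the part of length in the result was not tested.

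**Figure D3:**
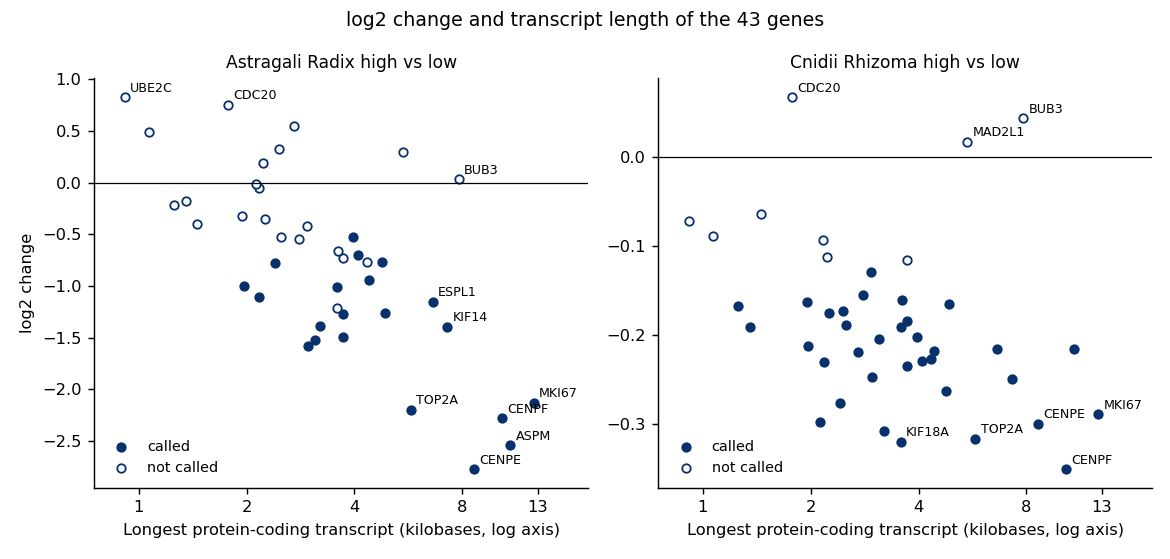
Each point is 1 of the 43 genes, with the length of its longest protein-coding transcript in kilobases on a log axis and its log2 change on the vertical axis, filled where called. With Astragali Radix (left) UBE2C lies at 0.83 and CENPE at -2.77, and with Cnidii Rhizoma (right) the changes span -0.35 to 0.07 with a weaker slope.

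At the medium dose of Astragali Radix 4 of the 43 genes fell (9.30% of the 16608 genes tested were called lower) and 5 rose (7.24% were called higher). Neither count stood far from the share over all genes. CENPE measured 65.4, 73.2 and 63.3 CPM at the low dose and 47.8, 55.2 and 49.5 at the medium dose, a log2 change of -0.41 ± 0.06 (adjusted p = 1.4e-06). CENPF, MKI67 and ASPM fell by 0.23, 0.22 and 0.16 on the log2 scale. CENPE, CENPF, MKI67 and ASPM have the 4 longest transcripts of the 43 genes, and Spearman's correlation between length and log2 change across the 43 genes was -0.54 (-0.20 over 12889 protein-coding genes). MAD2L1, CDC25C, CDC20, CCNB1 and PTTG1 rose by 0.23, 0.21, 0.17, 0.15 and 0.12. CDC20 measured 161, 151 and 157 CPM, above all 3 low-dose libraries. The medium and high doses share the low-dose libraries. With library totals 8 genes were called lower and 1 higher (over all genes 1202 higher and 1544 lower became 311 and 2459), and with all 54 replicated libraries in 1 model 0 were lower and 1 higher.

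At the high dose of Cnidii Rhizoma 34 of the 43 genes fell and 0 rose, each by a small amount (11.6% of the 16608 genes tested were called lower and 12.1% higher). The median log2 change was -0.20, against 0.00 over all genes, and 35 genes were lower without overlap, where 17.9% of all genes were. Every kinesin (7 of 7), every spindle assembly gene (6 of 6), the whole passenger complex (4 of 4), both chromosome structure genes and both cytokinesis genes fell, with 5 of 6 kinetochore genes and 5 of 7 mitotic entry genes. The checkpoint gave 2 of 5 and the anaphase role 1 of 4. Against the vehicle in place of the low dose, 24 of the 34 genes stayed called lower and 7 kept their sign without a call. The other 3 values turned sign: KIF2C to 0.012, ESPL1 to 0.107 and CDK1 to 0.117.

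The largest changes were in CENPF, KIF18A and TOP2A. CENPF measured 294, 310 and 307 CPM at the low dose and 221, 260 and 229 at the high dose (log2 change -0.35 ± 0.05, adjusted p = 1e-07). KIF18A measured 34.8, 37.6 and 34.1 CPM at the low dose and 28.9, 29.1 and 27.0 at the high dose (-0.32 ± 0.05, adjusted p = 2.2e-06). TOP2A measured 457, 484 and 489 CPM at the low dose and 382, 398 and 363 at the high dose (-0.32 ± 0.03, adjusted p = 2.4e-11). In each of these genes all high-dose libraries lay below all low-dose libraries, and in CENPF the high-dose libraries were the more spread. KIF20A, CENPE, CDC25C, MKI67, NUSAP1, ANLN and KIF14 followed, between -0.31 and -0.25. MKI67 measured 896, 945 and 867 CPM at the low dose and 691, 781 and 738 at the high dose. Of the genes with fixed levels, KIF11 fell from 107, 111 and 112 CPM to 99.7, 101 and 92.8, BUB1B from 112, 115 and 112 to 99.6, 101 and 97.1, and TPX2 from 332, 338 and 334 to 291, 307 and 296. ASPM fell by 0.22 and AURKB by 0.17 on the log2 scale. AURKB and CDK1 were the 2 called genes whose libraries overlapped.

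The 9 genes that were not called with Cnidii Rhizoma include the parts of the checkpoint and anaphase machinery that were not called with Astragali Radix. CDC20 measured 138, 145 and 132 CPM at the low dose and 149, 140 and 145 at the high dose (log2 change 0.07 ± 0.04, adjusted p = 0.24). UBE2C gave -0.07, PTTG1 -0.09, MAD2L1 0.02, BUB3 0.04, CENPA -0.06, CCNB1 -0.09, PLK1 -0.11 and TTK -0.12. For CDC20, UBE2C and MAD2L1 the groups overlapped. All 21 genes that fell with Astragali Radix were among the 34 of all 43 genes that fell with Cnidii Rhizoma (61.8% of those 34). These comparisons share no library, and most of the 43 genes fell with Cnidii Rhizoma in any case. Spearman's correlation between transcript length and log2 change across the 43 genes was -0.42 with Cnidii Rhizoma (-0.13 over 12889 protein-coding genes), and 9 of the 15 genes under 2500 bases fell. Medium doses without a call among the 43 genes also gave negative values. They were -0.32 (Cnidii Rhizoma), -0.29 (Rehmanniae Radix Preparata), -0.26 (Cinnamomi Cortex) and -0.18 (Angelicae Gigantis Radix). Rehmanniae Radix Preparata at the high dose gave 0.07.

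The count of 34 was 29 to 33 when any single library was left out, 33 by DESeq2 and 38 with library totals (over all genes 2011 higher and 1922 lower became 1384 and 2775). When the spread was estimated over all 54 replicated libraries, the high-dose Astragali Radix libraries included, 5 genes were called lower.

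At the high dose of Cinnamomi Cortex 24 of the 43 genes rose and 0 fell (3.27% of the 16608 genes tested were called higher and 2.81% lower). The median log2 change was 0.13 and 42 of the 43 values were above 0 (50.1% of all genes were below 0). MAD2L1 had the largest change: 68.9, 82.6 and 75.5 CPM at the low dose and 89.6, 90.5 and 89.1 at the high dose (log2 change 0.25 ± 0.06, adjusted p = 0.013). CCNB1 measured 135, 149 and 149 CPM at the low dose and 161, 166 and 169 at the high dose (0.20 ± 0.04, adjusted p = 0.0031). BUB1B measured 110, 105 and 107 CPM at the low dose and 120, 118 and 123 at the high dose (0.17 ± 0.03, adjusted p = 8.8e-05). In each of these the high-dose libraries lay above all low-dose libraries. KIF14, NUF2, NDC80, KIF2C, KIF11, CDC20 and CDCA8 rose by 0.16 to 0.23. CDC20 measured 130, 133 and 139 CPM at the low dose and 150, 146 and 154 at the high dose.

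Of the 24 genes that rose with Cinnamomi Cortex, 19 (79.2%) were among the 34 that fell with Cnidii Rhizoma (55.9% of those), and BUB3, CCNB1, CDC20, MAD2L1 and PTTG1 were not. As 34 of all 43 genes fell with Cnidii Rhizoma, this overlap is near the share among all 43 and links the 2 responses no further. MKI67 (0.07), CENPE (0.03), NUSAP1 (0.06) and CDC25C (-0.02) were not called with Cinnamomi Cortex. The count of 24 rested on the shared model: it was 8 with the 2 groups alone, 14 with library totals (over all genes 543 higher and 466 lower became 264 and 592), 0 with all 54 libraries in 1 model, 28 by DESeq2 and 13 to 18 with any single library left out (13 when high-dose library 1 or library 2 of the low dose was left out, and 14 when high-dose library 3 was). Low-dose library 1 differed from the other 2 low-dose libraries of Cinnamomi Cortex by a chi-square of 13.7 and 12.5 per gene, where those differed by 2.73, and its mitochondrial share was 10.0% against 7.84% and 7.55%. Without it 18 of the 43 genes were called higher. Against the vehicle in place of the low dose, 17 of the 24 stayed called higher, 6 kept their sign without a call and PTTG1 turned sign.

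**Figure D4:**
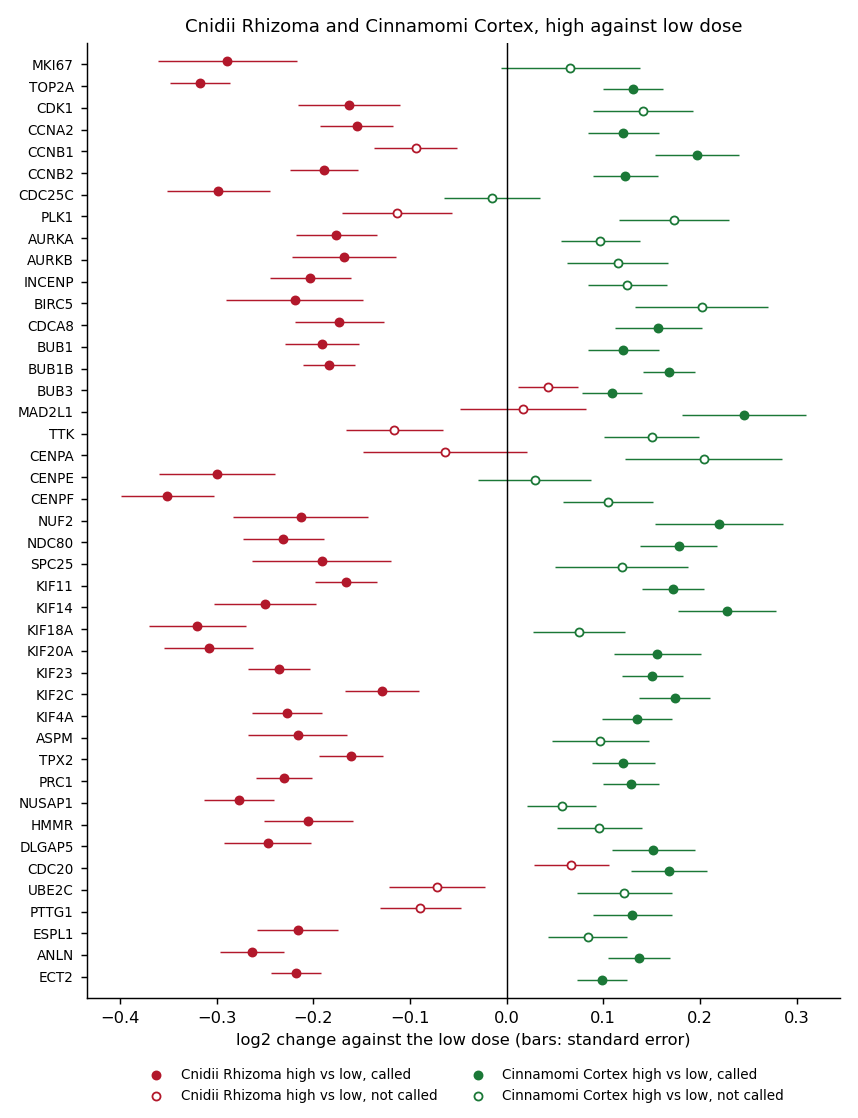
log2 change of each of the 43 genes at the high against the low dose, with its standard error as a bar, for Cnidii Rhizoma (red) and Cinnamomi Cortex (green), filled where called. All 34 called Cnidii Rhizoma values lie below 0 and all 24 called Cinnamomi Cortex values above 0, with BUB3, MAD2L1 and CDC20 above 0 in both.

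The differences between extracts were tested directly, as the high against low change of 1 extract minus that of another. Against Cinnamomi Cortex the change with Cnidii Rhizoma was lower in 38 of the 43 genes (6.33% of all genes), led by KIF14 at -0.48 ± 0.07 and KIF20A at -0.47 ± 0.06. Against Rehmanniae Radix Preparata it was lower in 36 (6.08%), led by CENPE at -0.44 ± 0.08, and against Paeoniae Radix in 31 (7.85%), led by KIF18A at -0.46 ± 0.07. BUB3, MAD2L1, CENPA and CDC20 were called in none of these 3 tests, which share the Cnidii Rhizoma libraries. With all 54 replicated libraries in 1 model the counts of 38, 36 and 31 became 6, 4 and 2. The change with Astragali Radix was lower than that with Cnidii Rhizoma in 17 genes (17.8%), led by CENPE at -2.47 ± 0.40 and ASPM at -2.31 ± 0.46. Against Paeoniae Radix, Rehmanniae Radix Preparata and Cinnamomi Cortex it was lower in 24 genes each (17.0%, 18.9% and 18.7% of all genes). With library totals the genes called higher and lower over all genes went from 1033 and 1010 to 815 and 1325 against Rehmanniae Radix Preparata, and for Astragali Radix from 3199 and 2827 to 1978 and 4616 against Cnidii Rhizoma, with like shifts in its other 3 tests (52.6% to 55.0% of the calls higher became 29.1% to 29.3%). In the main edgeR fits 0 of the 43 genes were called higher in any of the 7 tests. Over all genes 6.22% to 7.39% were called higher for Cnidii Rhizoma (7.10% against Cinnamomi Cortex) and 20.1%, 20.8%, 21.0% and 20.8% for Astragali Radix. By DESeq2, 1 gene was called higher in the test of Astragali Radix against Cnidii Rhizoma. By edgeR some genes were called higher in the Astragali Radix tests with all 54 libraries in 1 model, and 0 to 3 against Cnidii Rhizoma with a single library left out.

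The other extracts gave few calls, and 0 of the 43 genes were called lower in the main edgeR fits of these comparisons. With Paeoniae Radix at the high dose 4 genes rose (5.44% of all genes were called higher and 4.06% lower): ECT2, PTTG1, KIF4A and ANLN, by 0.11 to 0.14. ECT2 measured 239, 260 and 246 CPM at the low dose and 268, 276 and 271 at the high dose (log2 change 0.12 ± 0.03, adjusted p = 0.0015). The count was 9 without low-dose library 2, 1 without low-dose library 1 or 3 and 0 with the 2 groups alone, and with library totals the genes called went from 904 higher and 675 lower to 649 and 819. At the medium dose TPX2 rose (0.235% of all genes were called higher and 0.169% lower), from 298, 322 and 309 CPM to 358, 354 and 334 (0.17 ± 0.03, adjusted p = 0.023). It was not called without any 1 of low-dose libraries 1 and 3 or medium-dose libraries 1 and 2. DESeq2 called 8 of the 43 genes higher, and against the vehicle the value of TPX2 turned to -0.037.

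With Angelicae Gigantis Radix at the high dose KIF23 and TPX2 rose (0.680% of all genes were called higher and 0.524% lower), on 2 libraries per group. KIF23 measured 113 and 112 CPM at the low dose and 131 and 126 at the high dose (log2 change 0.19 ± 0.04, adjusted p = 0.0034), and TPX2 measured 325 and 315 CPM against 362 and 358 (0.17 ± 0.04, adjusted p = 0.018). All 43 values were above 0, between 0.02 and 0.19, where 50.1% of all genes were below 0. With any single library left out 0 or 1 of the 43 genes was called, and with library totals the calls over all genes went from 113 higher and 87 lower to 72 and 115. With Rehmanniae Radix Preparata at the high dose BUB1B and UBE2C rose (0.813% of all genes were called higher and 0.620% lower). BUB1B measured 110, 111 and 112 CPM at the low dose and 126, 120 and 122 at the high dose (0.14 ± 0.03, adjusted p = 0.0015), and UBE2C measured 101, 96.7 and 104 CPM against 117, 114 and 113 (0.19 ± 0.05, adjusted p = 0.034). With library totals 1 of the 43 was called, and over all genes 135 higher and 103 lower became 91 and 125.

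The medium doses of Angelicae Gigantis Radix, Rehmanniae Radix Preparata, Cinnamomi Cortex and Cnidii Rhizoma gave 0 calls among the 43 genes in the main edgeR fits and 0 by DESeq2 (0.00%, 0.00%, 0.00% and 3.11% of all genes were called in the main fits). At an unadjusted p under 0.05 they held 5, 14, 14 and 5 of the 43 genes, and 764, 1346, 1074 and 2510 of the 16608 genes tested. Their median log2 changes were 0.06, 0.06, 0.07 and 0.05. For Cnidii Rhizoma 36 of the 43 values were above 0 at 100 µg/mL (50.2% of all genes were below 0, and over all genes 270 were called higher and 247 lower, or 158 and 340 with library totals). TOP2A there measured 478, 497 and 495 CPM.

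**Figure D5:**
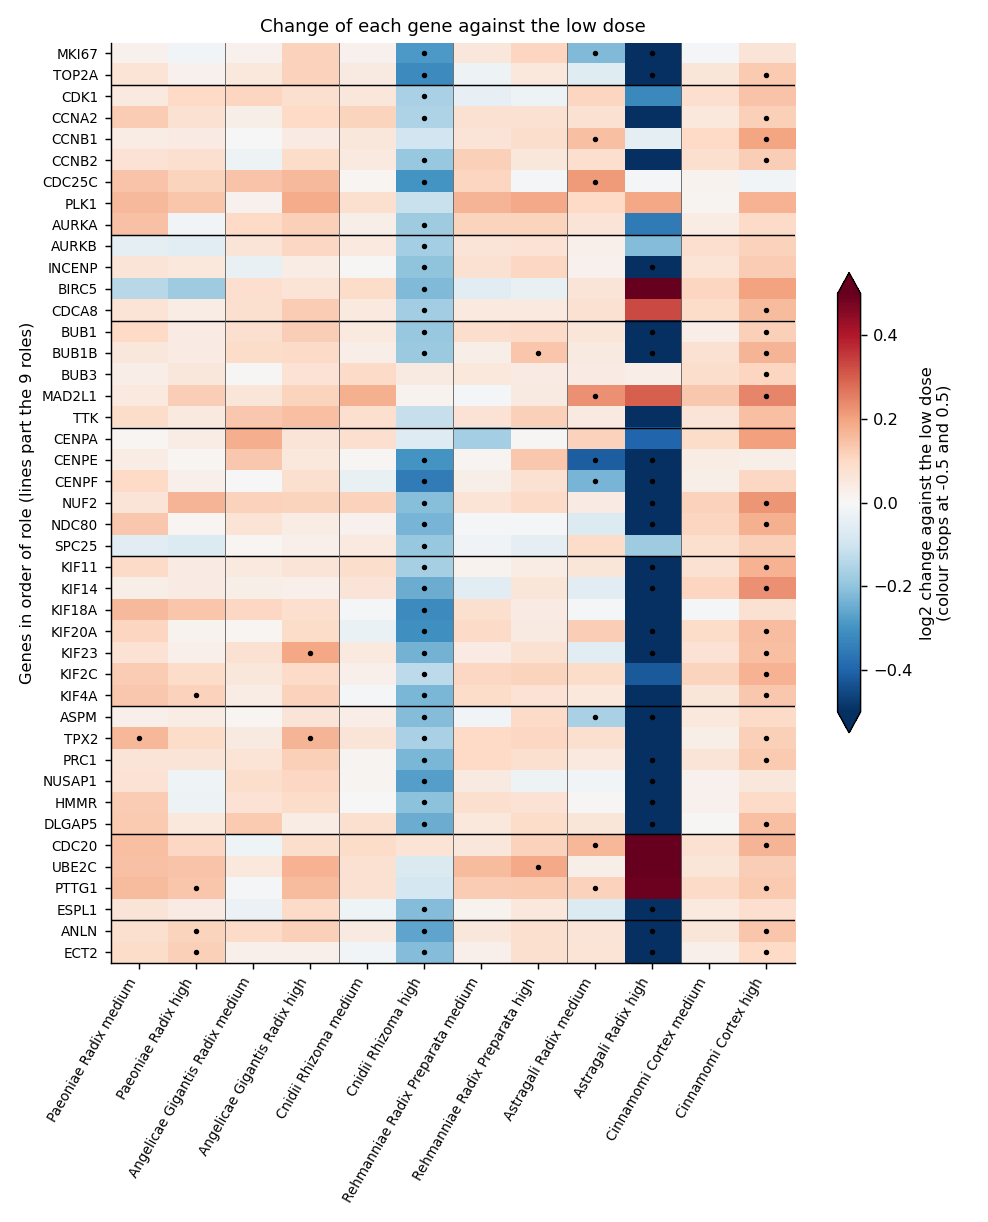
Colour shows the log2 change of each gene (rows, in order of role) at the medium and high dose of each extract against its low dose (columns), stopping at -0.5 and 0.5, and dots mark called genes. The columns of Cnidii Rhizoma high and Astragali Radix high are mostly blue, with 34 and 21 dots, and that of Cinnamomi Cortex high is mostly red, with 24.

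The formulas had 1 library per dose, so no test was possible, and no value was checked by a replicate. Differences of log2 CPM against the low-dose library stayed within 0.5 for all 43 genes at both doses of both formulas (over all 18283 genes, 5.87% were higher by more than 0.5 and 7.78% lower for Sagunja-tang at the high dose, and 6.08% and 8.92% for Samul-tang, with 5.93% and 6.20%, and 6.10% and 6.40%, at the medium doses). At the high dose 42 of the 43 values were at or above 0 in both formulas (51.3% and 49.9% of all genes were below 0), with medians of 0.11 for Sagunja-tang and 0.13 for Samul-tang. MKI67 measured 854, 911 and 946 CPM at the low, medium and high dose of Sagunja-tang and 817, 894 and 913 in Samul-tang. PLK1 had the largest difference with Sagunja-tang, 152, 165 and 181 CPM. CDC25C was the exception with Samul-tang at -0.18, and DLGAP5 with Sagunja-tang at -0.03.

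The low doses, used as the reference above, differed from the vehicle in both directions, a comparison added after the values were seen. Between 12 and 17 of the 43 genes were called per extract (of all genes, 19.5% with Cinnamomi Cortex, 20.5% with Angelicae Gigantis Radix, 21.4% with Cnidii Rhizoma, 22.5% with Astragali Radix, 24.0% with Rehmanniae Radix Preparata and 26.0% with Paeoniae Radix), and the 6 comparisons share the vehicle libraries. ESPL1 measured 51.3, 50.9 and 52.5 CPM in the vehicle and 59.3 to 65.8 in the 17 low-dose libraries of the 6 extracts, and KIF18A measured 40.0, 41.2 and 39.2 CPM against 31.0 to 38.0. For both genes the vehicle libraries lay outside the range of the low-dose libraries. The vehicle libraries also had mitochondrial shares of 9.41% to 12.3%, and come from another set of sample codes, and the part of either in these differences was not tested.

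Neighbouring parts of the pathway were described from 9 lists with 143 genes in all, whose counts stand beside 18.3% of all genes lower and 21.9% higher with Astragali Radix at the high dose, 11.6% and 12.1% with Cnidii Rhizoma, and 2.81% and 3.27% with Cinnamomi Cortex. Condensin and cohesin, which fold chromosomes and hold sisters together, were listed with the cohesin regulators SGO1, SGO2 and CDCA5. These genes followed the 43: 10 of 16 were lower with Astragali Radix at the high dose (SMC4 -1.74, SMC2 -1.62, SMC1A -1.49), 13 of 16 lower with Cnidii Rhizoma (SGO2 -0.23, NCAPG -0.21, NCAPD2 -0.19) and 6 of 16 higher with Cinnamomi Cortex (CDCA5 0.20, NCAPG2 0.17, STAG1 0.15). Their medians were -0.91, -0.14 and 0.12, against 0.02, 0.00 and 0.00 over all genes. Centrosome and centriole genes gave 9 of 13 lower with Astragali Radix (CEP192 -2.45, CEP152 -1.79, SASS6 -1.68), 4 lower and 1 higher with Cnidii Rhizoma and 5 higher with Cinnamomi Cortex. Among 26 other kinetochore and centromere genes 8 were lower and 2 higher with Astragali Radix (KNL1 -1.97, CENPC -1.53, CENPI -1.30), 6 lower and 1 higher with Cnidii Rhizoma (CENPI -0.46, SKA2 -0.40, SPC24 -0.39) and 6 higher with Cinnamomi Cortex.

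Of 20 tubulins and spindle binding proteins, 7 were lower and 4 higher with Astragali Radix, where TUBB2A rose by 2.77 and KIF15 fell by 2.52 on the log2 scale, and 13 were lower with Cnidii Rhizoma, led by the tubulin-binding protein STMN1 at -0.43. STMN1 measured 143, 150 and 150 CPM at the low dose of Cnidii Rhizoma and 110, 110 and 109 at the high dose. Of 15 DNA replication genes, 12 were higher with Cinnamomi Cortex (TYMS 0.20, MCM3 0.19, MCM7 0.17), 8 were lower and 1 higher with Cnidii Rhizoma, and 3 were lower and 1 higher with Astragali Radix. CDC6, which loads the replicative helicase, was the higher gene in both, at 0.34 with Cnidii Rhizoma and 1.47 with Astragali Radix. Of 13 regulators of mitotic entry outside the 43, Astragali Radix gave 3 lower and 3 higher, Cnidii Rhizoma 4 lower and Cinnamomi Cortex 2 higher. The 17 subunits and partners of the anaphase promoting complex gave 4 lower and 3 higher with Astragali Radix (FBXO5 -1.71, UBE2S 1.48, ANAPC1 -1.19), 1 higher with Cnidii Rhizoma and none with Cinnamomi Cortex by edgeR.

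FOXM1 measured 204, 193 and 187 CPM at the low dose of Astragali Radix and 119, 160 and 208 at the high dose (log2 change -0.22 ± 0.24, adjusted p = 0.49), and MYBL2 measured 213, 205 and 204 CPM against 269, 229 and 371 (0.53 ± 0.23, adjusted p = 0.1). In both the libraries of the high dose were spread. With Cnidii Rhizoma FOXM1 fell by 0.16 (adjusted p = 0.008) and MYBL2 was not called (0.06), and with Cinnamomi Cortex MYBL2 rose by 0.15 (adjusted p = 0.014) and FOXM1 was not called (0.10). Of all 13 regulators, 4 were lower and 2 higher with Astragali Radix (E2F8 -2.09, RBL1 -1.84, RBL2 -1.36), 3 lower with Cnidii Rhizoma and 2 higher with Cinnamomi Cortex.

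CDKN1A, the p21 inhibitor of cyclin-dependent kinases, rose with Astragali Radix and fell with Cinnamomi Cortex. It measured 15.6, 13.2 and 14.8 CPM at the low dose of Astragali Radix, 19.9, 17.1 and 19.9 at the medium dose and 275, 386 and 309 at the high dose (log2 change at the high dose 4.51 ± 0.19, adjusted p = 9.5e-05). Every high-dose library lay far above every low-dose library. With Cinnamomi Cortex CDKN1A fell by 0.48 (adjusted p = 0.00021), with Cnidii Rhizoma it was not called (-0.12, adjusted p = 0.34), and with Paeoniae Radix, where 4 of the 43 genes rose, it rose by 0.86 (adjusted p = 1.8e-11). Of the 10 inhibitors and p53 targets, 6 were higher and 2 lower with Astragali Radix, led by GADD45B at 7.10 and followed by CDKN1A and SESN2 at 4.28, and 2 were lower with Cnidii Rhizoma (CDKN2C -0.54, BTG2 -0.44).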

How the data were processed

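The deposited table holds the authors' expected counts per gene (RSEM estimates), made from paired reads of 100 bases with FastQC 0.11.9, Trim Galore 0.6.5, STAR 2.7.3a and RSEM 1.3.3 on hg38, per the submitters' processing notes. The kit kept strand, per the labels' protocols, but whether counting used strand, and from which annotation release, is not given in the sources used here. Of its columns, 60 were used and 213 of other samples were not used. The counts were rounded to whole numbers (8.78% of values were not whole). Entries without a name held 0.0504% of counts.

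Groups were taken from the labels. Genes with low counts were removed with edgeR's filterByExpr, library sizes were scaled by TMM, and the quasi-likelihood F test of edgeR 4.0.16 (R 4.3.3) was run with Benjamini-Hochberg adjustment over all genes tested and a threshold of 0.05. Standard errors were computed as |log2 change| / sqrt(F). The shared model held 51 libraries in 18 groups, the Astragali Radix high against low fit held 6 libraries, and each difference test with Astragali Radix held 12. Formulas were compared as log2 CPM with a prior count of 2 and no test. Named genes were all 43 by role for Astragali Radix at the high dose, up to 10 called genes per direction elsewhere, a fixed set of 12 genes for levels, and up to 3 called genes per pathway list with FOXM1, MYBL2 and CDKN1A. The 43 genes, the lists and the tests were chosen with earlier results of these data known.

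Alternatives were library totals, no filter, DESeq2 1.42.0, the 2 groups alone, all 54 replicated libraries, a replicate block, the vehicle as reference and each library left out. On simulated counts the shared model recovered 44% of 50 genes changed by 0.2 (log2) in the Cnidii Rhizoma comparison (16428 genes) and 84% at 0.5, and the Astragali Radix fit (14961 genes) recovered 6% at 1 and 82% at 2. False calls numbered 9 and 1. Few genes were changed in the simulation, and both groups were given the same spread. The real high-dose Astragali Radix libraries were more spread and many more genes were called, so these shares do not give the power of the real tests.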

Additional observations from a re-analysis of the deposited data

Results flagged for a closer look

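The high against low change differed between extracts, by a test of the difference itself, in all 7 pairs tested with edgeR. With Cnidii Rhizoma the change was lower than with Cinnamomi Cortex in 38 of the 43 genes, than with Rehmanniae Radix Preparata in 36 and than with Paeoniae Radix in 31, where 6.33%, 6.08% and 7.85% of all genes were lower. With all 54 replicated libraries in 1 model these counts were 6, 4 and 2. With Astragali Radix it was lower than with Cnidii Rhizoma in 17 genes (17.8% of all genes), and lower than with Paeoniae Radix in 24, than with Rehmanniae Radix Preparata in 24 and than with Cinnamomi Cortex in 24 (17.0%, 18.9% and 18.7% of all genes).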

How the results depend on the processing

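With the vehicle as reference, the genes called lower and higher of the 43 were 6 and 12 (Paeoniae Radix high), 2 and 12 (medium), 2 and 12 (Angelicae Gigantis Radix high), 5 and 10 (medium), 4 and 13 (Cnidii Rhizoma medium), 2 and 12 (Rehmanniae Radix Preparata medium) and 3 and 11 (Cinnamomi Cortex medium). Against the vehicle 13 were higher with Rehmanniae Radix Preparata high, 14 with Astragali Radix medium and 2 with Cnidii Rhizoma high, and 1 was lower with Cinnamomi Cortex high. The other direction is not listed for these. The shares of all genes called in these comparisons are not given here. The low doses alone called 19.5% (Cinnamomi Cortex) to 26.0% (Paeoniae Radix) of all genes against the vehicle. The counts are therefore not read as a result about the 43 genes. Of the values called against the low dose, 72 stayed called against the vehicle and 18 kept their sign without a call. The sign of 7 called values turned against the vehicle: PTTG1 to -0.03 (Astragali Radix medium), -0.06 (Cinnamomi Cortex high) and -0.10 (Paeoniae Radix high), TPX2 to -0.037 (Paeoniae Radix medium), and CDK1, ESPL1 and KIF2C to 0.117, 0.107 and 0.012 (Cnidii Rhizoma high). The cause was not tested.

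With all 54 libraries in 1 model, 0 genes were higher with Paeoniae Radix high and medium, Angelicae Gigantis Radix high, Rehmanniae Radix Preparata high and Cinnamomi Cortex high, 5 were lower with Cnidii Rhizoma high, 0 lower and 1 higher with Astragali Radix medium, and 5 higher with Astragali Radix high. With Astragali Radix high all 21 genes called lower in the main fit stayed called lower there. Further genes, such as TPX2 and KIF4A, were called lower as well. In that model the Cnidii Rhizoma differences held 2 (Paeoniae Radix), 4 (Rehmanniae Radix Preparata) and 6 (Cinnamomi Cortex) lower genes. The Astragali Radix differences held 28 lower and 6 higher (Cnidii Rhizoma), and 3, 2 and 2 higher (Paeoniae Radix, Rehmanniae Radix Preparata and Cinnamomi Cortex). With library totals, 1 gene was higher with Paeoniae Radix high, 1 with Rehmanniae Radix Preparata high, 14 with Cinnamomi Cortex high and 1 with Astragali Radix medium, where 8 were lower. With the 2 groups alone, 0 were higher with Paeoniae Radix high and medium, 1 with Cnidii Rhizoma medium and 8 with Cinnamomi Cortex high. With no filter, 1 was lower with Paeoniae Radix high, and 5, 1 and 2 were higher with Paeoniae Radix, Cnidii Rhizoma and Rehmanniae Radix Preparata medium. DESeq2 called 8 higher with Paeoniae Radix medium, 4 with Rehmanniae Radix Preparata high and 1 in the difference of Astragali Radix and Cnidii Rhizoma. The cause was not tested.

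For each library, the deviation of log2 CPM from its group mean was taken per gene. Between same-numbered libraries of the compared doses these deviations correlated weakly over genes, by -0.039 to 0.094. The main tests did not pair libraries. By this measure each library correlated best with its own number in the Cinnamomi Cortex comparisons (0.046 to 0.094 at the high dose). The same held for Paeoniae Radix high and Astragali Radix medium, and not for the other comparisons. With a replicate block, 2 genes were higher with Paeoniae Radix medium and 1 with Cnidii Rhizoma medium, and 96 of the 97 called values stayed called.

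With 1 library left out, the lower counts were 12 to 34 (Astragali Radix high), 2 to 4 (medium), 29 to 33 (Cnidii Rhizoma high) and 0 to 1 (Paeoniae Radix high). The higher counts were 0 to 1 (Astragali Radix high), 3 to 5 (medium), 13 to 18 (Cinnamomi Cortex high), 1 to 9 (Paeoniae Radix high), 0 to 8 (medium), 0 to 1 (Angelicae Gigantis Radix high) and 1 to 2 (Rehmanniae Radix Preparata high). For the Astragali Radix differences the lower and higher counts were 11 to 30 and 0 to 3 (Cnidii Rhizoma), 20 to 35 and 0 to 2 (Paeoniae Radix), 21 to 37 and 0 to 1 (Rehmanniae Radix Preparata) and 21 to 37 and 0 to 1 (Cinnamomi Cortex). For the Cnidii Rhizoma differences the lower counts were 28 to 32 (Paeoniae Radix), 32 to 36 (Rehmanniae Radix Preparata) and 37 to 40 (Cinnamomi Cortex).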
